A study of Mus musculus with 16 samples.

Results

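The 10 genes described here encode the TGF-beta ligands and the matrix proteins that store or relay profibrotic signals: *Ctgf*, *Cilp*, *Tgfb1*, *Tgfb2*, *Tgfb3*, *Ltbp1*, *Postn*, *Tnc*, *Fn1* and *Thbs1*. They are 10 of the 41388 genes in the deposited tables. They were chosen by symbol with earlier results on these same libraries known, in which *Ctgf* and *Cilp* had been set against the ligands and the other matrix signals. Their differences between groups are therefore given as descriptions with errors, and where their calls are counted, nothing is read from the counts. The lists of 96 other genes of the pathway were drawn up with those results known too, so calls on them are no independent test.

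RNA was sequenced from quadriceps of mice on postnatal day 36, in 4 groups of 4 libraries with the strain label C57BL/6. The groups were wild type (WT), the *Mtm1* knockout (KO, labelled mtm1 -/-, a model of X-linked myotubular myopathy that carries a deletion of exon 4), and each genotype fed tamoxifen (TAM) in chow at 40 mg/kg per day from day 21. The deletion is present in every tissue, and no group carries a Cre or another transgene in the labels. Replicates are numbered as in the labels: WT 1 to 4, WT + TAM 5 to 8, KO 9 to 12 and KO + TAM 13 to 16.

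TGF-beta ligands are secreted in a latent form that is tethered in the matrix by binding proteins, and integrins, proteases and thrombospondin can release the active ligand. Active ligand signals through receptor kinases to SMAD transcription factors, which raise the transcription of matrix genes, while the YAP and TAZ coactivators respond to mechanical load and share several of those targets. In skeletal muscle this system is known for matrix repair after injury and for fibrosis in dystrophy.

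*Mtm1*, which encodes the phosphoinositide phosphatase deleted in the knockout, served as the check of the labels. Its level, in RPKM (reads per kilobase of gene, scaled to the total count of the library), was 0.934, 0.887 and 0.911 in WT replicates 2, 3 and 4. In KO replicates 9, 10 and 11 it was 0.209, 0.174 and 0.194. The tamoxifen groups separated in the same way, with 0.780 to 1.23 in the 4 WT + TAM libraries and 0.131 to 0.237 in the 4 KO + TAM libraries. The library labelled WT replicate 1 went against its label: it held 74 *Mtm1* counts, an RPKM of 0.211, between the lowest and the highest of the KO libraries. KO replicate 12 had 0.235, in the range of the knockout. The paper left out both of these libraries without a stated reason, so the remaining 14 libraries (3 WT, 4 WT + TAM, 3 KO and 4 KO + TAM) are the main set, and values with all 16 follow in the comparisons that these 2 libraries enter.

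WT + TAM replicates 7 and 8 were the closest pair of the 120 pairs of libraries. Their counts differed with a median chi-square of 1.47 per gene over 14187 genes, against 0.455 for counting noise alone and at least 3.40 in the other pairs within a group. The paper states that the n values of its mouse experiments are separate mice. Whether these libraries came from 1 animal was not tested. They were kept apart, and counts are given below without each. KO replicate 10 also stood apart, since its cartilage markers summed to 43.6 RPKM against 2.18 and 2.72 in KO replicates 9 and 11. Total counts ran from 25116179 to 29847222 per library, and the lowest count of any of the 10 genes in a library was 204, for *Tgfb1*.

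The scale matters for the comparison of genotypes. The 10 most abundant genes of a library took 23.6 to 27.6% of all counts in the 3 WT libraries and 16.9 to 18.8% in the 3 KO libraries, and RPKM is scaled by the total count alone. With that scaling all genes together had a median log2 fold change of 0.33 in KO against WT and 0.27 in KO + TAM against WT + TAM. Fold changes below use TMM factors, which bring these medians to 0.02 and -0.01, so between genotypes RPKM shows a larger rise, or a smaller fall, than the fold change given with it.

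Among the 3 WT libraries the levels ran from *Cilp* (18.3 ± 1.29 RPKM, mean and SD), *Ctgf* (15.3 ± 0.473) and *Fn1* (14.3 ± 0.873) down to *Tnc* (2.71 ± 1.03) and *Ltbp1* (2.21 ± 0.206). *Tgfb3* and *Postn* stood between, at 11.2 ± 0.326 and 8.88 ± 1.34, each apart from the gene above it. *Thbs1*, *Tgfb2* and *Tgfb1* followed at 5.54 ± 2.18, 5.27 ± 0.0887 and 4.20 ± 1.20, and each gene from *Thbs1* down overlapped the gene above it in range. In KO the order opened with *Cilp* (219 ± 30.02), *Ctgf* (87.6 ± 10.7) and *Postn* (29.8 ± 9.005), whose ranges did not overlap. *Fn1*, *Tgfb3*, *Thbs1* and *Tgfb1* came next and overlapped from neighbour to neighbour, and *Tgfb2*, *Tnc* and *Ltbp1* closed the order below a gap. The order of means in KO + TAM was the same as in KO, gap included. In WT + TAM *Ctgf* (31.7 ± 8.72) stood above *Cilp* (17.9 ± 6.13) with no overlap, and each lower neighbour overlapped the gene above it.

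**Figure D1:**
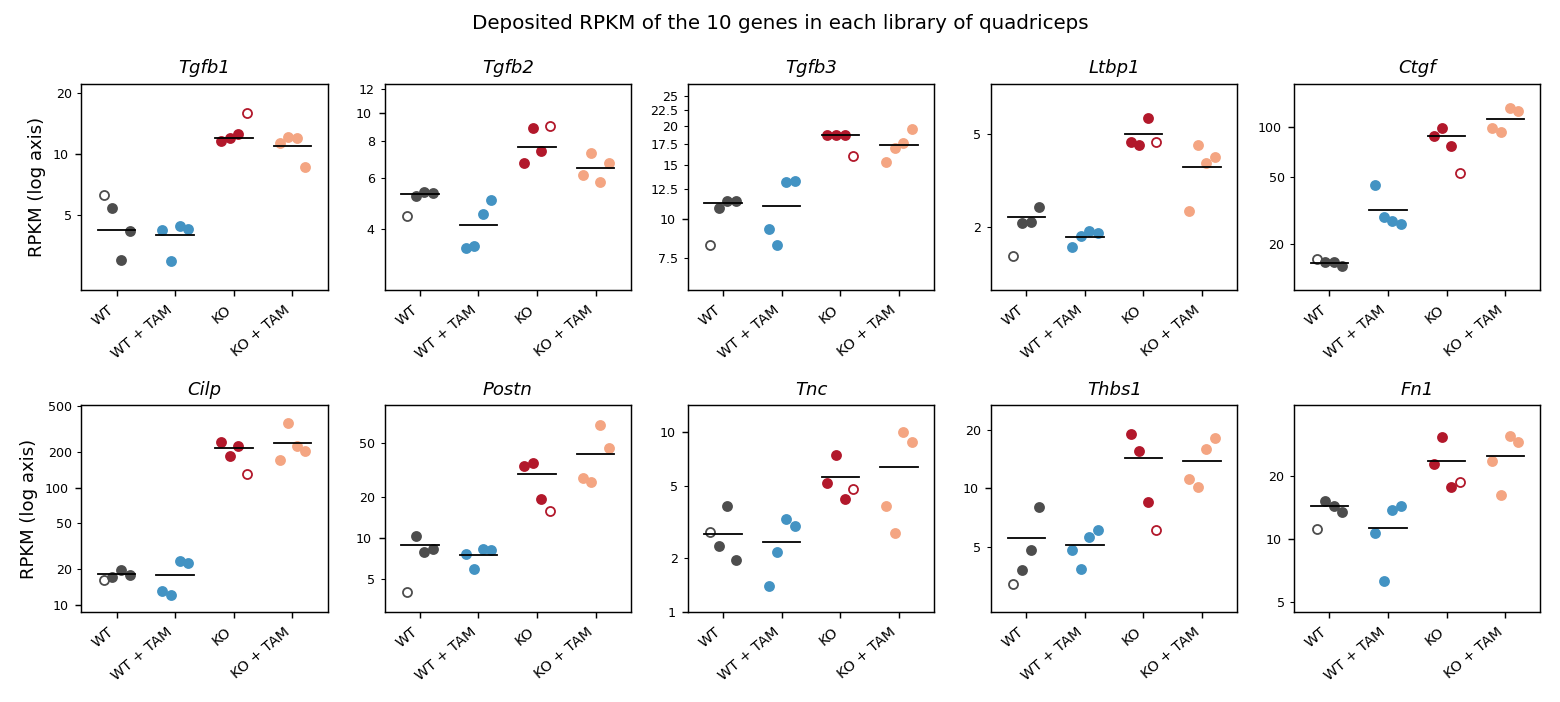
Level of the 10 genes in each library, as RPKM on a log axis, by group. Filled points are the 14 libraries of the main set, hollow points are the library labelled WT replicate 1 and KO replicate 12, and bars are means of the filled points. *Cilp* lies between 17.1 and 19.7 in the filled WT points and between 186 and 245 in the filled KO points.

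The ligand genes came first in the pathway and showed unequal differences. *Tgfb1* (ENSMUSG00000002603, GRCm38 chromosome 7, 25687002 to 25705077), the ligand most often tied to fibrosis, had 5.39, 3.005 and 4.18 RPKM in WT replicates 2, 3 and 4. It had 11.6, 11.98 and 12.5 in KO replicates 9, 10 and 11. All 3 KO libraries were above the WT libraries, by a log2 fold change of 1.22 ± 0.18 (SE). With tamoxifen the WT libraries ran from 2.97 to 4.41 and the KO libraries from 8.59 to 12.1, again with no overlap, and the log2 fold change was 1.19 ± 0.16. KO replicate 12 had the highest *Tgfb1* of any library, 15.9, and the library labelled WT replicate 1 the highest among those labelled WT, 6.27.

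*Tgfb2* (ENSMUSG00000039239, chromosome 1, 186622792 to 186705989), which is also needed in heart and skeletal development, had 5.17, 5.35 and 5.29 RPKM in WT and 6.72, 8.85 and 7.38 in KO. The WT values were tight, and the KO values were above them in RPKM. After TMM scaling the 2 groups overlapped, and the log2 fold change was 0.22 ± 0.14. *Tgfb3* (ENSMUSG00000021253, chromosome 12, 86056745 to 86079041), a ligand of palate and tendon development, had 10.9, 11.5 and 11.4 in WT and 18.7, 18.6 and 18.7 in KO. The 3 KO libraries were nearly equal and above all WT libraries, and the log2 fold change was 0.42 ± 0.12. With tamoxifen the log2 fold changes were 0.38 ± 0.15 for *Tgfb2* and 0.38 ± 0.16 for *Tgfb3*.

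The sum of the 3 ligand levels was 20.7 ± 0.828 RPKM in WT and 38.4 ± 1.22 in KO. *Tgfb3* gave the largest part of it in every library of the main set, 54.4 ± 3.57% in WT and 48.8 ± 1.70% in KO. The part of *Tgfb1* was 25.2, 15.2 and 20.04% in the WT libraries and 31.3, 30.4 and 32.3% in the KO libraries. In KO + TAM it was 34.5, 33.2, 33.8 and 24.6%, so that replicate 16 fell in the range of WT. Shares of a sum do not depend on the scaling of a library.

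*Ltbp1* (ENSMUSG00000001870, chromosome 17, 75005568 to 75392512) encodes a latent TGF-beta binding protein that tethers the ligand in the matrix. Its level was 2.08, 2.10 and 2.45 RPKM in WT and 4.62, 4.52 and 5.90 in KO. KO replicate 11 was far above the other KO libraries, KO replicate 12 (4.63) included, and the groups did not overlap, with a log2 fold change of 0.87 ± 0.15. In KO + TAM the values were 2.34, 4.49, 3.76 and 3.98, and replicate 13 was within the range of WT. The 4 WT + TAM libraries lay lower, from 1.64 to 1.92, and the log2 fold change between the tamoxifen groups was 0.71 ± 0.16.

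*Ctgf* (ENSMUSG00000019997, chromosome 10, 24595442 to 24598683) encodes a matricellular CCN protein that is a target of both SMAD and YAP. Its level was 15.6, 15.6 and 14.7 RPKM in WT and 88.1, 98.0 and 76.7 in KO. In WT + TAM it was 44.7, 28.7, 27.2 and 26.3, and in KO + TAM 97.9, 92.7, 129 and 124. The WT + TAM libraries, with replicate 5 far above the rest, were all above WT and all below KO. The log2 fold change was 2.2 ± 0.13 in KO against WT and 1.52 ± 0.19 in KO + TAM against WT + TAM. KO replicate 12 had the lowest *Ctgf* of the KO libraries, 53.1, and with all 16 libraries the fold change between genotypes was 1.98 ± 0.20. Exons of the antisense gene *Gm15270* cover 23.2% of the exon bases of *Ctgf*, and without the strand setting of the counts its reads cannot be told apart from those of *Ctgf*.

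*Cilp* (ENSMUSG00000042254, chromosome 9, 65265180 to 65280605) encodes a cartilage and mesenchymal matrix protein that binds TGF-beta. Its level was 17.1, 19.7 and 18.1 RPKM in WT and 245, 186 and 225 in KO. In WT + TAM it was 13.05, 12.1, 23.5 and 22.8, and in KO + TAM 172, 359, 229 and 206. Every KO library, with or without tamoxifen, was above every WT library. Within WT + TAM the values fell into a low pair, replicates 5 and 6, and a high pair, replicates 7 and 8. The log2 fold change was 3.26 ± 0.17 in KO against WT and 3.47 ± 0.28 in KO + TAM against WT + TAM. KO replicate 12 was the lowest KO library at 130.4, and with all 16 libraries the value was 3.12 ± 0.22. KO replicate 10, with its high cartilage markers, had the lowest *Cilp* of the 3 KO libraries in the main set.

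The ratio of *Cilp* to *Ctgf* RPKM within a library does not depend on its scaling. It was 1.10, 1.26 and 1.22 in WT and 2.78, 1.90 and 2.94 in KO. In WT + TAM it was 0.292, 0.422, 0.866 and 0.868, and in KO + TAM 1.75, 3.88, 1.77 and 1.66. All WT + TAM libraries were below all WT libraries, and all KO libraries of both kinds were above them. The ratio of *Ctgf* to *Tgfb1* was 2.89, 5.17 and 3.52 in WT, 6.16 to 8.18 in KO, 6.16 to 10.6 in WT + TAM and 7.69 to 14.4 in KO + TAM. In KO replicate 12 it was 3.35, in the range of WT.

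*Postn* (ENSMUSG00000027750, chromosome 3, 54361109 to 54391037) encodes periostin, a matricellular protein that links collagen to integrins. Its level was 10.4, 7.88 and 8.38 RPKM in WT and 34.1, 35.9 and 19.5 in KO. In KO + TAM it was 27.9, 25.7, 67.6 and 46.3. Replicate 15 was the highest of all libraries, and every KO library was above every WT library. The log2 fold change was 1.43 ± 0.21 without tamoxifen and 2.18 ± 0.26 with it. The library labelled WT replicate 1 (4.01) and KO replicate 12 (15.7) were the lowest of their groups.

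*Thbs1* (ENSMUSG00000040152, chromosome 2, 118111876 to 118127133) encodes thrombospondin, which can activate latent TGF-beta. Its level was 3.79, 4.85 and 7.98 RPKM in WT and 19.1, 15.5 and 8.57 in KO. KO replicate 11 was only a little above WT replicate 4, and after TMM scaling the groups overlapped, with a log2 fold change of 1.06 ± 0.32. KO replicate 12 (6.14) was below WT replicate 4. With tamoxifen the 4 KO libraries, from 10.1 to 18.1, were all above the WT libraries, from 3.85 to 6.14, and the log2 fold change was 1.16 ± 0.20.

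*Tnc* (ENSMUSG00000028364, chromosome 4, 63959785 to 64047015) encodes tenascin C, a matrix glycoprotein of tendon junctions and of regenerating muscle. Its level was 2.31, 3.87 and 1.93 RPKM in WT and 5.18, 7.41 and 4.24 in KO. In KO + TAM it was 3.90, 2.75, 10.05 and 8.80. Replicate 14 was in the range of the WT + TAM libraries, 1.39 to 3.29, so the tamoxifen groups overlapped. *Fn1* (ENSMUSG00000026193, chromosome 1, 71585520 to 71653200) encodes fibronectin, on which latent TGF-beta complexes are laid down. It had 15.2, 14.3 and 13.4 RPKM in WT and 22.7, 30.5 and 17.7 in KO. For both genes the WT and KO groups overlapped after TMM scaling, with log2 fold changes of 0.72 ± 0.30 for *Tnc* and 0.40 ± 0.18 for *Fn1*. With tamoxifen these were 1.09 ± 0.38 and 0.86 ± 0.26.

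**Figure D2:**
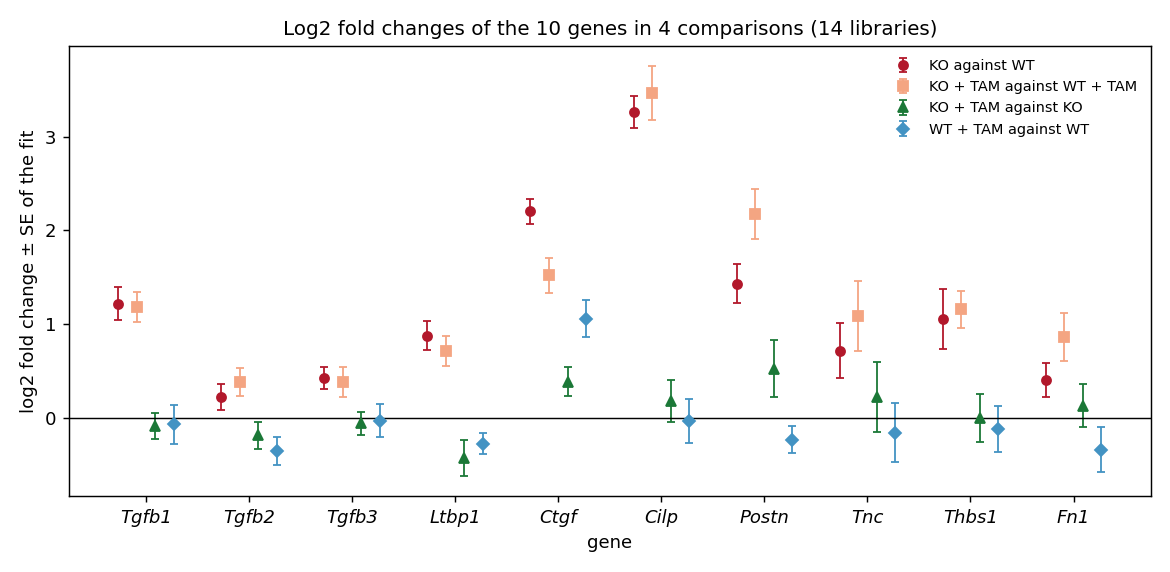
Log2 fold change of each of the 10 genes in 4 comparisons over the 14 libraries, with the SE of the fitted model as error bars. Genes stand along the horizontal axis and symbols mark the comparisons. In KO against WT and in KO + TAM against WT + TAM all 10 points are above 0, from 0.22 for *Tgfb2* to 3.26 for *Cilp* in the first of them.

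In KO against WT, which asks what the deletion does without treatment, all 10 genes had a positive log2 fold change, with a median of 0.96 against 0.02 over the 14740 genes tested. In RPKM the groups did not overlap for 10 of the 10 genes, where 47.2% of all genes tested did not overlap. After TMM scaling this held for 6 of the 10, all but *Tgfb2*, *Tnc*, *Fn1* and *Thbs1*, against 36.3% of all genes. Calls were made up to an adjusted p of 0.01, and 5 of the 10 were called, *Ctgf*, *Cilp*, *Tgfb1*, *Ltbp1* and *Postn*, where 531 genes (3.60%) were called in either direction and 282 (1.91%) as higher in KO. Nothing is read from these counts or from those of the 10 in the comparisons below, since results on all 4 groups were known when the genes were chosen. The count was 2 or 3 without any 1 of the 6 libraries: 3 without WT replicate 2, WT replicate 3 or KO replicate 11, and 2 without WT replicate 4, KO replicate 9 or KO replicate 10. *Ltbp1* lost its call in all 6 of these fits (adjusted p from 0.0144 to 0.0342), *Postn* in 5 (up to 0.0237) and *Tgfb1* in 4 (up to 0.0210), while *Ctgf* and *Cilp* kept theirs. The count of all genes was 263, 244 and 194 when WT replicate 2, 3 or 4 was left out, and 211 and 182 when KO replicate 10 or 11 was. With all 16 libraries 2 of the 10 were called, *Ctgf* and *Cilp*, and 211 genes overall (1.44%). The log2 fold changes of the other 8 were then 1.105 ± 0.266 for *Tgfb1*, 0.32 ± 0.16 for *Tgfb2*, 0.44 ± 0.14 for *Tgfb3*, 0.95 ± 0.17 for *Ltbp1*, 1.44 ± 0.295 for *Postn*, 0.62 ± 0.26 for *Tnc*, 0.38 ± 0.18 for *Fn1* and 0.96 ± 0.35 for *Thbs1*.

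KO + TAM against WT + TAM asks for the same difference under treatment, in libraries whose results were also known when the genes were chosen. All 10 genes again had a positive log2 fold change, with a median of 1.12 against -0.01 over 14563 genes. The groups did not overlap in RPKM for 9 of the 10, all but *Tnc*, beside 30.1% of all genes, and after TMM scaling for 7, beside 22.5%. Of the 10, 5 were called, *Ctgf*, *Cilp*, *Tgfb1*, *Postn* and *Thbs1*, where 979 genes (6.72%) were called, 498 (3.42%) as higher and 481 (3.30%) as lower. *Thbs1* was not called without KO + TAM replicate 15. The count of all genes was 554 and 538 when WT + TAM replicate 7 or 8 was left out, and 622, 537 and 424 when KO + TAM replicate 13, 14 or 15 was.

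Tamoxifen itself was compared within each genotype, and these comparisons share the KO or the WT libraries with the ones above. In KO + TAM against KO the log2 fold change was 0.39 ± 0.15 for *Ctgf*, 0.17 ± 0.22 for *Cilp* and 0.52 ± 0.31 for *Postn*. It was -0.43 ± 0.19 for *Ltbp1*, the gene whose groups did not overlap in RPKM, 1 of 10 beside 7.43% of all genes; after TMM scaling 0 of 10 were apart, beside 7.69%. The ligands lay from -0.19 for *Tgfb2* to -0.06 for *Tgfb3*. With KO replicate 12 added these values were 0.515 ± 0.181 for *Ctgf*, 0.31 ± 0.24 for *Cilp*, 0.69 ± 0.32 for *Postn* and -0.43 ± 0.18 for *Ltbp1*, and the ligands lay from -0.28 to -0.03. The signs of *Cilp*, *Tgfb1*, *Tnc*, *Fn1* and *Thbs1* changed under at least 1 alternative setting. The median of the 10 genes was 0.06 against -0.01 over 15062 genes, with 5 above 0. The edgeR test called 0 of the 10 and 0 of all genes (0.00%), with 2 and 1137 at an unadjusted p under 0.05, and DESeq2 called 0 and 68. Without KO replicate 9, or without KO + TAM replicate 16, edgeR called 1 gene.

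In WT + TAM against WT the log2 fold change of *Ctgf* was 1.06 ± 0.20, and the other 9 genes were below 0, from -0.36 ± 0.15 for *Tgfb2* to -0.03 ± 0.18 for *Tgfb3*. With WT replicate 1 added *Ctgf* was at 0.98 ± 0.20, the others lay from -0.35 for *Tgfb2* to 0.02 for *Tgfb3*, and *Ctgf* alone did not overlap in RPKM. The signs of *Cilp*, *Tgfb1*, *Tgfb3*, *Tnc* and *Thbs1* changed under at least 1 alternative setting. The groups of the main set did not overlap in RPKM for 3 of the 10, *Ctgf*, *Tgfb2* and *Ltbp1*, beside 11.4% of all genes. After TMM scaling this held for *Ctgf* and *Ltbp1*, 2 of 10 beside 11.4%. The median was -0.14 against 0.00 over 14544 genes. The edgeR test called 0 of the 10, with 19 of all genes (0.131%) called; 3 of the 10 and 1549 of all genes had an unadjusted p under 0.05, and DESeq2 called 1 and 208. Leaving out WT replicate 2, 3 or 4 brought the count of all genes to 9, 12 and 2, and leaving out WT + TAM replicate 5, 7 or 8 brought it to 4, 6 and 4.

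The difference between the tamoxifen effects in KO and in WT was fitted as an interaction over the 14 libraries. It was -0.66 ± 0.25 for *Ctgf*, 0.23 ± 0.36 for *Cilp* and 0.77 ± 0.38 for *Postn*, on the log2 scale, and -0.44 ± 0.275, 0.37 ± 0.35 and 0.75 ± 0.42 with all 16. That of *Cilp* ran from -0.018 to 0.385 over the alternative settings, and those of *Tgfb1*, *Tgfb3*, *Ltbp1*, *Tnc* and *Thbs1* also changed sign in at least 1 of them. The median of the 10 genes was 0.15 against 0.01 over 15556 genes. The edgeR test called 0 of the 10 and 0 of all genes (0.00%), with 1 and 664 at an unadjusted p under 0.05. DESeq2 called 0 and 12.

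The other genes of the pathway were tested as 7 lists with 96 genes, of which 94 passed the filter on low counts. In KO against WT 5 of the 94 rose and 0 fell. Of all 14740 genes 531 (3.60%) were called in either direction and 282 (1.91%) as higher. Their median log2 fold change was 0.20 against 0.02 over all genes, and 62 of 94 were above 0. The call threshold was an adjusted p of 0.01 over all genes tested, and 44 of the 94 had an unadjusted p under 0.05, beside 4431 of the 14740. DESeq2 called 16, beside 1630 overall. The count was 3 when either WT replicate 2 or WT replicate 4 was left out, and 1 with all 16 libraries. In KO + TAM against WT + TAM 14 rose and 3 fell, beside 498 (3.42%) and 481 (3.30%) of all 14563 genes, the median was 0.29 against -0.01, and 64 were above 0. That count of 17 was 11 without WT + TAM replicate 7, 12 without WT + TAM replicate 8 and 10 without KO + TAM replicate 15.

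Of the TGF-beta induced genes 2 of 18 rose in KO against WT. *Timp1*, an inhibitor of metalloproteinases, had 3.70, 1.67 and 2.12 RPKM in WT and 34.6, 60.9 and 46.5 in KO. All KO libraries of the main set were far above its WT libraries. *Timp1* differed by a log2 fold change of 3.94 ± 0.30 (adjusted p = 0.000266). The libraries outside the main set were each the highest of their label, with 21.97 in the library labelled WT replicate 1 and 93.9 in KO replicate 12. With all 16 libraries the adjusted p of *Timp1* was 0.104, while leaving out 1 library gave 0.00047 to 0.00201.

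Of the YAP and TAZ targets 1 of 19 rose. *Ankrd1*, a muscle ankyrin repeat protein that responds to stretch, had 5.32, 4.54 and 5.45 RPKM in WT and 119, 69.7 and 147 in KO. In WT + TAM it was 14.6, 7.18, 13.95 and 12.5, and in KO + TAM 167, 376, 270 and 149. The KO libraries were above the WT libraries in both pairs, by a log2 fold change of 4.16 ± 0.28 in KO against WT (adjusted p = 0.000214) and 4.02 ± 0.32 between the tamoxifen groups (adjusted p = 4.7e-05). It was the 1 pathway gene called with all 16 libraries (adjusted p = 0.00317), and leaving out 1 library gave 6.45e-05 to 0.00145. KO replicate 12 was the highest KO library, 233.

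Of the other matricellular proteins 1 of 20 rose, and of the small leucine-rich proteoglycans 1 of 9. *Thbs4*, a thrombospondin of tendon and muscle matrix, had 56.6, 65.2 and 54.1 RPKM in WT and 153, 188 and 159 in KO. *Aspn*, asporin, a proteoglycan that binds TGF-beta, had 13.6, 12.1 and 12.7 in WT and 34.2, 32.7 and 26.2 in KO. Neither gene overlapped between the groups of the main set, but *Thbs4* was 112 in the library labelled WT replicate 1, and *Aspn* was 11.8 in KO replicate 12, below the 3 WT libraries of the main set. The log2 fold change was 1.19 ± 0.15 for *Thbs4* (adjusted p = 0.00249) and 0.97 ± 0.13 for *Aspn* (adjusted p = 0.00268). *Thbs4* was not called without WT replicate 2 or WT replicate 4, nor *Aspn* without WT replicate 2, 3 or 4, and the adjusted p over the fits with 1 library left out ran from 0.00262 to 0.0160 and from 0.00558 to 0.0173. With all 16 libraries it was 0.136 and 0.117.

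The lists nearest to the ligands held 0 calls in KO against WT by edgeR. These were the receptors (0 of 6, median 0.16), the SMADs and their regulators (0 of 11, median -0.12) and latent storage and activation (0 of 18, median 0.17). At an unadjusted p under 0.05 there were 1, 5 and 6 genes, and DESeq2 called 0, 2 and 1. The medians of the other lists were 0.41 for the matricellular proteins, 0.10 for the proteoglycans, 0.29 for the TGF-beta induced genes and 0.50 for the YAP and TAZ targets.

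Between the tamoxifen groups, 5 of the 18 TGF-beta induced genes rose, among them *Timp1* (3.21 ± 0.47, adjusted p = 0.00149), *Lox* and *Nox4*. *Bgn*, the proteoglycan biglycan, also in this list, rose by 1.41 ± 0.17 (adjusted p = 0.000644). *Bgn* and *Aspn* (1.32 ± 0.16, adjusted p = 0.000613) were the 2 of 9 proteoglycans that rose, and *Kera*, keratocan, fell. Of the matricellular proteins 4 of 20 rose: *Spp1*, osteopontin (2.73 ± 0.28, adjusted p = 0.000216), *Thbs4* (1.45 ± 0.18, adjusted p = 0.000586), *Fbln1* (0.68 ± 0.14, adjusted p = 0.00688) and *Cyr61*. Of the YAP and TAZ targets *Ankrd1*, *Gadd45a* (1.5 ± 0.23, adjusted p = 0.0016), *Ccdc80* and *Cyr61* rose and *Amotl2* fell, with 19 tested. *Cyr61* stands in both of these lists, and *Bgn* is counted among the induced genes and the proteoglycans.

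Of the SMADs and their regulators *Tgif1*, a corepressor of SMADs, rose between the tamoxifen groups (1.36 ± 0.27, adjusted p = 0.00598). *Smad3*, which carries the ligand signal to the nucleus, fell by 1.10 ± 0.19 on the log2 scale (adjusted p = 0.00384). Its level was 14.8, 20.1, 22.5 and 22.4 RPKM in WT + TAM and 8.59, 10.7, 10.1 and 15.8 in KO + TAM. In KO against WT its value was -0.72 ± 0.17, which did not pass (adjusted p = 0.0276). The receptors (median 0.11) and the storage and activation genes (median 0.40) held 0 calls by edgeR, with 1 and 7 at an unadjusted p under 0.05 and 0 and 1 called by DESeq2. The medians of the SMADs, matricellular proteins, proteoglycans, induced genes and YAP and TAZ targets were -0.28, 0.37, 0.38, 0.37 and 0.28.

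Of these 17 calls 9 held in each of the 8 fits with 1 library left out, among them *Timp1*, *Aspn*, *Thbs4*, *Ccdc80*, *Ankrd1*, *Spp1*, *Bgn* and *Gadd45a*. The other 8 were lost in at least 1 fit. *Fbln1* was called only without WT + TAM replicate 5, with an adjusted p from 0.00478 to 0.0240 over the 8 fits. *Cyr61* was lost in 6 fits, up to 0.0259, those without WT + TAM replicate 6, 7 or 8 or KO + TAM replicate 13, 15 or 16. *Nox4* was lost in 6, up to 0.0163, without WT + TAM replicate 5, 6 or 7 or KO + TAM replicate 14, 15 or 16. *Smad3* was lost in 5, up to 0.0178, without WT + TAM replicate 7 or 8 or KO + TAM replicate 13, 14 or 15. *Tgif1* was lost in 5, up to 0.0226, without WT + TAM replicate 5 or 6 or KO + TAM replicate 14, 15 or 16. *Kera* was lost without WT + TAM replicate 7 or 8 or KO + TAM replicate 14 or 15, up to 0.0155, and *Amotl2* without WT + TAM replicate 7 or KO + TAM replicate 13, 14 or 15, up to 0.0226. *Lox* was lost without WT + TAM replicate 6 or 8 or KO + TAM replicate 16, up to 0.0115.

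**Figure D3:**
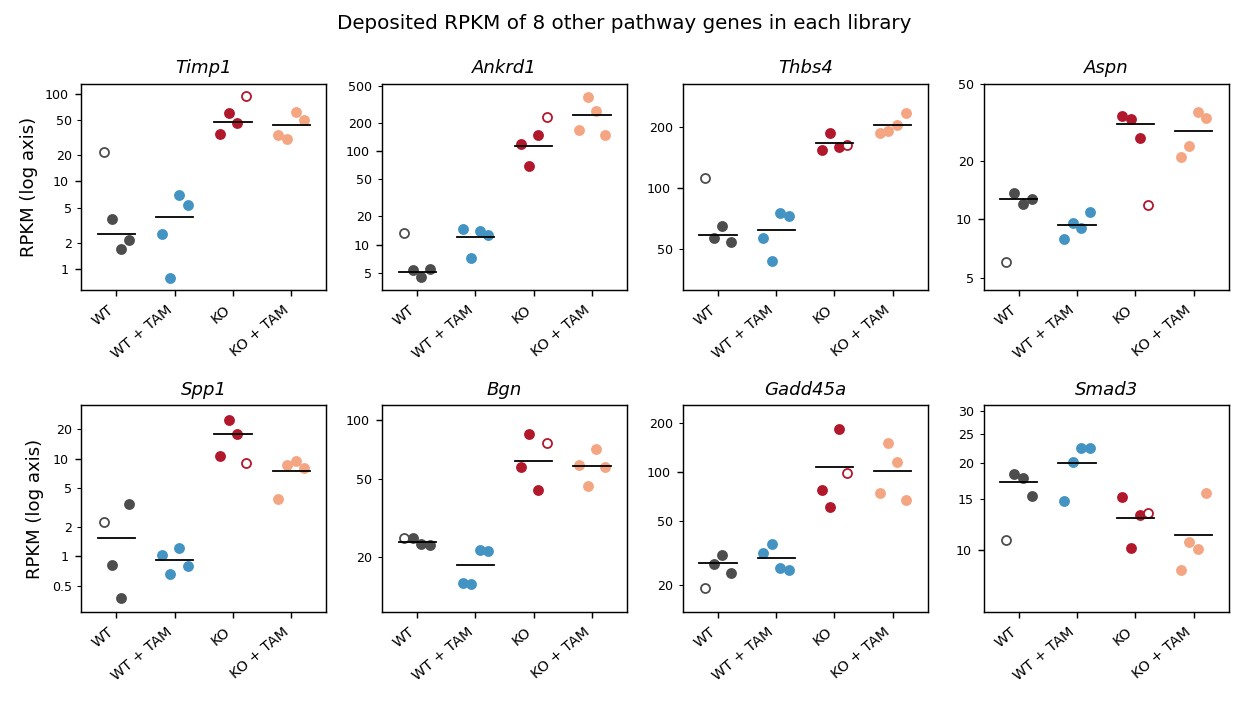
Level of 8 of the 17 pathway genes called between the tamoxifen groups, in each library, as RPKM on a log axis, by group. Filled points are the 14 libraries, hollow points are the library labelled WT replicate 1 and KO replicate 12, and bars are means of the filled points. The hollow KO point of *Aspn*, 11.8, lies below the filled WT points, and that of *Ankrd1*, 233, is the highest without tamoxifen.

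In the comparisons of tamoxifen within a genotype edgeR called 0 of the 94 pathway genes. In KO + TAM against KO 14 had an unadjusted p under 0.05 and DESeq2 called 3, with a median of -0.04 against -0.01 over all genes and 39 above 0. In WT + TAM against WT 21 had an unadjusted p under 0.05 and DESeq2 called 4, with a median of -0.11 against 0.00 and 39 above 0; edgeR called 1 without WT + TAM replicate 6. For the interaction these counts were 9 and 1, with a median of 0.01 against 0.01. Of the pathway genes called in KO + TAM against WT + TAM, *Fbln1* had the lowest adjusted p by edgeR in KO + TAM against KO. That p was 0.118, which did not pass, and the log2 fold change of *Fbln1* was -0.79 ± 0.14.

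Markers of the cell types that quadriceps can hold were measured in 11 lists. In bulk tissue, fewer cells of a type and less RNA per cell cannot be told apart. The muscle fiber markers, led by *Acta1*, were present in every library and summed to 91590 ± 8842 RPKM in WT and 65930 ± 4257 in KO. Of the 9, 0 passed in KO against WT by edgeR (5 at an unadjusted p under 0.05, 5 by DESeq2), with a median log2 fold change of -0.66. Between the tamoxifen groups 9 of 9 had an unadjusted p under 0.05, and DESeq2 called 7. By edgeR 3 of 9 fell there, *Ckm*, *Myh4* and *Pvalb*, and the median was -0.63. Another 3 of the 9, *Mb*, *Myh1* and *Myh2*, named after their values were seen, were not called by edgeR. Their log2 fold changes were positive in both comparisons. Their mean RPKM was 1270, 442 and 99.5 in WT, 2367, 1055 and 279 in KO and 2831, 1303 and 356 in KO + TAM. *Ckm* was lost without any 1 library but KO + TAM replicate 13, with an adjusted p of up to 0.0278. *Pvalb* was lost without WT + TAM replicate 5, 7 or 8 or KO + TAM replicate 14, up to 0.0161.

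The fibroblast markers, led by *Gsn*, summed to 832, 635 and 769 RPKM in WT and 1116, 1361 and 1269 in KO. In WT + TAM the sum was 813, 587, 764 and 737, and in KO + TAM 1083, 1026, 1091 and 1050. Every KO library was above every WT library on this scale. Of the 12 markers 11 had a positive log2 fold change in KO against WT, with a median of 0.28 against 0.02 over all genes. Of these 12, 6 had an unadjusted p under 0.05, and DESeq2 called 2. By edgeR *Mfap5*, a microfibril protein, was the 1 that rose, by 1.26 ± 0.21 (adjusted p = 0.00754). It was not called without WT replicate 2, 3 or 4 or KO replicate 10 or 11 (0.00666 to 0.0326 over the 6 fits), nor with all 16 libraries (0.0260). By edgeR it rose between the tamoxifen groups as well, by 1.61 ± 0.26 (adjusted p = 0.0025). The median of the fibroblast markers there was 0.34, with 7 at an unadjusted p under 0.05 and 2 called by DESeq2. Their part in the levels of the 10 genes was not tested.

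The tendon markers, led by *Thbs4*, summed to 175 to 230.0 RPKM in WT, 262, 576 and 317 in KO and 303 to 386 in KO + TAM. KO replicate 10 held the high value. Of the 9, *Thbs4* alone rose by edgeR in KO against WT (3 at an unadjusted p under 0.05, 3 by DESeq2). Between the tamoxifen groups *Thbs4* rose and *Kera* fell by edgeR (5 unadjusted, 4 by DESeq2). The list's median log2 fold change was 0.349 in KO against WT, with 7 of 9 above 0, and -0.465 between the tamoxifen groups, with 3 of 9 above 0. The mean of *Thbs4* there was 61.8 RPKM in WT + TAM and 205 in KO + TAM. *Thbs4*, *Kera*, *Fmod*, *Comp* and *Cilp2* also stand in the pathway lists. The cartilage markers, led by *Col11a2*, summed to 3.51 to 5.94 RPKM in WT, and *Matn1* and *Snorc* were at 0 in all main-set libraries but KO replicate 10. Of 7 cartilage markers 3 passed the filter in KO against WT and 0 were called by edgeR or DESeq2, with 1 at an unadjusted p under 0.05 and a median of 1.60. Between the tamoxifen groups 0 of 4 were called by edgeR and 2 by DESeq2, with 3 at an unadjusted p under 0.05 and a median of -0.844. The part of either list in the level of *Cilp* was not tested. KO replicates 9 and 11, with cartilage sums below those of WT, had 245 and 225 RPKM of *Cilp*.

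The macrophage and leukocyte markers, led by *Lyz2*, summed to 75.5, 62.5 and 62.2 RPKM in WT and 108, 132 and 121 in KO. In KO + TAM the sum was 104, 107, 183 and 97.0. KO replicate 12, at 76.8, was the lowest KO library. By edgeR 0 of 8 passed in KO against WT (5 at an unadjusted p under 0.05, 2 by DESeq2), with a median of 0.50, and 0 of 8 between the tamoxifen groups (4 and 1), with a median of 0.53. The platelet markers, led by *Pf4*, summed to 15.9 ± 3.24 RPKM in WT and 34.5 ± 13.9 in KO, and 2 of 5 passed the filter and 0 the edgeR test in KO against WT (2 unadjusted, 0 by DESeq2). The part of these cells in the level of *Tgfb1*, which platelets and leukocytes also carry, was not tested.

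In the remaining 5 lists edgeR called 0 markers in KO against WT. Smooth muscle and pericyte markers, led by *Acta2*, summed to 214 ± 30.1 RPKM in WT and 225 ± 15.01 in KO, with a median log2 fold change of -0.09 over 7 (4 unadjusted, 2 by DESeq2). Endothelial markers, led by *Cdh5*, summed to 71.3 ± 16.6 and 71.9 ± 14.1, with a median of -0.28 over 6 (2 and 0). Schwann cell markers summed to 97.1 ± 42.6 and 119 ± 14.4, with a median of 0.21 over 6 (1 and 0). Fat cell markers, led by *Cfd*, varied most within WT, with sums of 899.7, 65.0 and 100.5 against 548 to 912 in KO, and a median of 0.57 over 5 (0 and 0). Red blood cell markers, led by *Hbb-bs*, summed to 148 ± 58.3 and 196 ± 149.8, with a median of 0.14 over 5 (0 and 0). Between the tamoxifen groups edgeR called 0 markers of these 5 lists as well, with medians of 0.07, -0.24, 0.23, -0.68 and -0.26 in the same order.

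For tamoxifen within a genotype edgeR called 0 markers of any of the 11 lists. The lists given here were picked after their values were seen. In WT + TAM against WT log2 fold changes were above 0 for 0 of 6 endothelial markers (median -0.479, 4 unadjusted, 1 by DESeq2), 3 of 12 fibroblast markers (median -0.304, 0 and 0) and 5 of 5 fat cell markers (median 0.791, 0 and 0). In KO + TAM against KO they were above 0 for 0 of 6 endothelial markers (median -0.294, 2 and 0), 2 of 9 tendon markers (median -0.567, 2 and 0) and 0 of the 5 cartilage markers tested (median -1.57, 1 and 0). The same held there for 4 of 12 fibroblast markers (median -0.181, 0 and 0) and 0 of 5 fat cell markers (median -0.183, 0 and 0). The part of these cells in the results was not tested.

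Likeness of profile was measured as the root mean square difference in centred log2 CPM over the 14 libraries, among 15556 genes. Among the 5 genes nearest to *Ctgf* were *Egln3* (0.41), *Emb* (0.43), *Vash2* (0.43) and *Cstb* (0.45). The 5 nearest to *Cilp* were *Cpne2* (0.31), *Ttc9* (0.31), *Runx1* (0.36), *Fam83g* (0.44) and *Sfn* (0.47). *Cpne2* had a mean of 3.48 RPKM in WT and 46.4 in KO, and *Egln3* 6.73 and 42.2. *Ctgf* and *Cilp* were 1.00 apart. Among the other 8 genes *Postn* was the nearest to *Ctgf*, at rank 48 (0.54), and to *Cilp*, at rank 121 (0.95), and *Tgfb1* was the nearest ligand to both, at rank 114 (0.60) and rank 289 (1.14).

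Because several of the 10 genes were higher together in the knockout, the RefSeq promoters (build GRCm38.p6) were searched for letters tied to their usual regulators. Of the 10 genes 6 had an entry, with 9 promoters in all, each read over the 250 bases before the start. *Ctgf*, *Tgfb3*, *Fn1* and *Thbs1* had none. The letters were GGAATG for TEAD, the partner of YAP, CAGACA for SMAD, TGAGTCA for AP-1 and TATAAA for a TATA box, on both strands, and none of them contains another. They occur in 12.6, 17.1, 4.46 and 12.4% of the 32817 promoters of the table. Among the 9 promoters 0, 3, 0 and 4 held them. The SMAD letters stood in *Tgfb2*, in the later start of *Ltbp1* and in 1 of the overlapping pair of *Tnc*. The TATA letters stood in *Tgfb2*, in the inner start of *Postn* and in both of *Tnc*. In the overlapping *Tnc* pair they are 1 stretch of the genome counted in both, at -126 from one start and -205 from the other. The counts over the 9 promoters are therefore not of separate stretches, and nothing is read from them. A match is a description of the sequence and not a site. Only these exact letters were searched, so a promoter without a match may still hold a variant of them. The promoter of *Cilp* holds tatataag near its start, which was not searched for and is not marked. Shown are *Cilp*, the gene with the largest difference, *Tgfb2*, a ligand with both kinds of match, and the start of *Postn* that lies at its annotated gene. Capitals mark the SMAD and TATA letters.
Cilp, chr9:65264930-65265179, plus strand: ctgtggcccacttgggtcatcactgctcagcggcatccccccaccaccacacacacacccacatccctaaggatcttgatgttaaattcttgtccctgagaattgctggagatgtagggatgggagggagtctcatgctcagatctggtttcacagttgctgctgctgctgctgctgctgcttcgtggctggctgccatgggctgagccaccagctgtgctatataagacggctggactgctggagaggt
Tgfb2, chr1:186705990-186706239, minus strand: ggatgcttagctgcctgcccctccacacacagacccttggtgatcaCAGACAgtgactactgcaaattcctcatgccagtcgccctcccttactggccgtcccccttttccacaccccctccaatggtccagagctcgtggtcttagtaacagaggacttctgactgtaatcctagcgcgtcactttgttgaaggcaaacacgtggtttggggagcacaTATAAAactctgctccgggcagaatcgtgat
Postn, chr3:54360857-54361106, plus strand: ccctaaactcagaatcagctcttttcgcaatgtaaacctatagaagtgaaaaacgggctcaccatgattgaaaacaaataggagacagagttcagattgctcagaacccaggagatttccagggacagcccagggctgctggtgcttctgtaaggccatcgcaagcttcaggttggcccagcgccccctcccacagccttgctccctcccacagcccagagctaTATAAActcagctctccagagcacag
The SMAD letters of *Tgfb2* begin at -204 from its start and the TATA letters at -31, and the TATA letters of *Postn* begin at -26.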

How the data were processed

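The authors aligned reads to GRCm38 with STAR in 2 steps and made the deposited table of raw counts, in count per gene, with HTSeq. The RPKM table was deposited by the authors, in RPKM, and checked over 4023 genes it was scaled by the column total with a largest relative deviation of 0.000104. The submitters' notes name bcl2fastq 2.17, STAR 2.5.0c and Cufflinks 2.2.1. The annotation, the strand setting, the counting mode and the lengths used for genes were not given in sources used here. All 16 libraries have 25116179 to 29847222 counts. Of 41388 identifiers 40254 were matched to GENCODE vM21, from which positions and exon overlaps were taken; the paper's supplement gives an age of 35 days where the labels give 36.

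Counts were tested with edgeR 4.0.16 in R 4.3.3: the libraries of the groups compared, filterByExpr by group (minimum count 10, minimum total 15), TMM factors, glmQLFTest (quasi-likelihood) and adjustment by Benjamini and Hochberg over all genes tested, with a threshold of 0.01 on the adjusted p. The interaction was fitted on all 4 groups at once. Errors of log2 fold changes are standard errors of the fit, and SD is between libraries. The code was tested on simulated data with known differences. Alternatives were DESeq2 1.42.0, an adjusted p of 0.05, RLE factors, library size alone, no filter, 1 fit of all groups, all 16 libraries and leaving out each library; adding WT replicate 1 or KO replicate 12 alone was chosen after seeing the data. Pairs of libraries were compared with a chi-square per gene on genes with at least 20 counts in the pair. Tables and figures used Python 3.11.15, pandas 2.3.3, scipy 1.17.1 and matplotlib 3.10.9, and limma 3.58.1 was loaded by edgeR.

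The members and lists were chosen with earlier results of these data known. Genes were named by rule: the 10 members, the pathway genes called in KO against WT or between the tamoxifen groups (at most 10 with full statistics), the called markers, the most abundant gene of each marker list, the 5 genes most like *Ctgf* and the 5 most like *Cilp* in centred log2 CPM (prior count 2), and *Mtm1*. The 7 pathway lists cover receptors, SMADs and their regulators, latent storage and activation, other matricellular proteins, small leucine-rich proteoglycans, TGF-beta induced genes and YAP/TAZ targets. The 11 marker lists cover muscle fiber, fibroblast, tendon, cartilage, smooth muscle and pericyte, endothelium, macrophage and leukocyte, Schwann cell, fat cell, platelet and red blood cell.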

Additional observations from a re-analysis of the deposited data

Results flagged for a closer look

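Dixon's limit bounds how far 1 library of 4 may lie from its nearest neighbour, relative to the range of the group. It was passed in 6 of the 44 groups of values looked at. For normal values chance passes it in about 1 in 20. The 44 groups share the same libraries and are not independent, so nothing is read from the count. Groups here hold all 16 deposited libraries. *Ctgf* in WT + TAM replicate 5 was the highest of its group, 44.7 RPKM, where the others had 26.3 to 28.7. *Tgfb1* in WT + TAM replicate 6 was the lowest, 2.97 RPKM. *Tgfb3* in KO replicate 12 was the lowest of the KO libraries, 16.04 RPKM, and *Ltbp1* in KO replicate 11 the highest, 5.90 RPKM. *Mtm1* in the library labelled WT replicate 1 was the lowest of its group, 0.211 RPKM, at the level of the knockout. *Mtm1* in KO + TAM replicate 13 was the lowest of its group, 0.131 RPKM.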

How the results depend on the processing

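In KO against WT, 531 genes were called, and this count became 1885 at an adjusted p of 0.05, 1630 with DESeq2, 1163 with library size alone, 1096 with no filter, 987 in 1 fit of all groups and 211 with all 16 libraries. Pathway genes, 5 of 94, became 21, 16, 17, 10, 11 and 1 in the same order, and called members, 5, became 2 with all 16 libraries. Adding WT replicate 1 alone gave 120 genes, 2 pathway genes and 2 members, and adding KO replicate 12 alone gave 349, 3 and 3; these additions, and the counts of called members, were chosen after seeing the data. With 1 library left out the counts ran from 182 to 363, from 3 to 6 and from 2 to 3.

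In KO + TAM against WT + TAM, 979 genes became 2476 at an adjusted p of 0.05, 1931 with DESeq2 and 1874 with library size alone, which also gave 31 pathway genes for 17 and 8 members for 5. Leave-out fits ran from 424 to 921 genes, from 10 to 15 pathway genes and from 4 to 6 members.

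In KO + TAM against KO, edgeR called 0 genes (1137 at an unadjusted p under 0.05), and the count became 68 with DESeq2, 12 with no filter and 2 in 1 fit; pathway genes went from 0 to 3 with DESeq2. Leave-out fits ran from 0 to 1 gene, 0 to 0 pathway genes and 0 to 0 members. In WT + TAM against WT, 19 genes became 80 at an adjusted p of 0.05, 208 with DESeq2, 81 with no filter, 39 in 1 fit and 12 with all 16 libraries; pathway genes, 0, became 4 with DESeq2 and 1 with no filter, and members, 0, became 1 and 1. Leave-out fits ran from 2 to 21 genes, from 0 to 1 pathway gene and from 0 to 0 members. The interaction, 0 genes (664 at an unadjusted p under 0.05), became 12 genes and 1 pathway gene with DESeq2, and was 0 in the leave-out fits. The cause was not tested for any of these.

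The log2 fold changes of the members kept their sign in 140 of 140 values over all settings in KO against WT and in 130 of 130 in KO + TAM against WT + TAM, against 118 of 130 in KO + TAM against KO, 116 of 130 in WT + TAM against WT and 186 of 210 for the interaction. Those that moved by more than the spread between libraries were 6, 5, 0, 1 and 1. *Cilp* ran from 3.11 to 3.58 in KO against WT, and *Ctgf* from 1.98 to 2.52.

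With 3 or 4 libraries in a group, a single library decided several calls, and a p above the threshold does not show that levels were equal. TMM factors rest on most genes being equal between groups. The paper's supplement calls the mice littermates, but the labels record no litter and the groups share no replicate numbers, so no paired analysis was possible. Depth limits the markers near 0 counts, while the lowest count of a member in any library was 204. Bulk RNA does not say which cells held the transcripts, and no protein was measured.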
